A study of Mus musculus with 6 samples.

Results

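The genes described here encode the proteins of the cytosolic ribosome, measured by RNA-Seq in mouse Th9 cells with and without the transcription factor IRF1. They were chosen by symbol (Rpl or Rps followed by a number and an optional a, l or x, or Rplp0 to Rplp2) and by a mean normalized count of at least 100 over the 6 libraries. Of 41388 genes in the table, 81 had such a symbol and 70 of these reached the mean of 100. They comprised 27 genes of the small subunit, 40 of the large subunit and 3 of the P stalk, and all 70 passed the filter for testing (a mean of at least 10, which 11379 genes reached). Because the mean over the libraries chose the members, their levels are given below as a description only.

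WT and Irf1-/- cultures were compared, 3 of each, all on the C57BL/6 background. Naive CD4+ T cells from spleen and lymph nodes of mice aged 8 to 12 weeks were kept for 2 days with IL-2, IL-4 and TGF-β, the Th9 condition, and both genotypes received IFN-γ at 5 ng per ml. By the study's general culture method the cells were activated with antibodies to CD3 and CD28. That method also included an antibody to mouse IFN-γ, and the added IFN-γ was rat IFN-γ. No culture without IFN-γ was part of the comparison, so a difference between the genotypes cannot be divided into one present before IFN-γ and one that depends on it. The study describes the cultures as independent biological samples without saying whether each came from a mouse of its own, so that the p-values measure the spread between these cultures. In bulk RNA a change in the share of one kind of cell cannot be told apart from a change in the RNA per cell.

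The cytosolic ribosome translates nuclear-encoded mRNAs. Its small subunit binds the mRNA and reads the codons, its large subunit forms the peptide bond, and the acidic proteins of the P stalk recruit translation factors to the large subunit. T cells that leave the resting state build many new ribosomes, and the mRNAs of the ribosomal proteins share a pyrimidine-rich start, the terminal oligopyrimidine (TOP) motif, through which mTORC1 and the RNA-binding protein LARP1 adjust their translation.

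The annotated starts of the members with the largest differences among those that passed the test are shown because a TOP motif opens the mRNA. Rpl30, which belongs to them, was not matched. Each window holds 15 bases before and 15 bases from the RefSeq start (GRCm38.p6), in the direction of transcription. Capitals mark the longest run of C or T, and where a gene had several entries the one with the longest run is shown.
Rpl37 (chr15:5116598-5116627, + strand): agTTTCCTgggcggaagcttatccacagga
Rps21 (chr2:180257364-180257393, + strand): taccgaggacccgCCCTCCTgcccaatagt
Rplp2 (chr7:141447636-141447665, + strand): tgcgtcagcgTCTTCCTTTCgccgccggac
Rpl35 (chr2:39005117-39005146, - strand): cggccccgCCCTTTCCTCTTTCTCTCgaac
Rps16 (chr7:28350674-28350703, + strand): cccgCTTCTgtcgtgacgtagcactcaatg
Rpl38 (chr11:114668565-114668594, + strand): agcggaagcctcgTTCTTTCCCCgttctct
Rpl35a (chr16:33056467-33056496, + strand): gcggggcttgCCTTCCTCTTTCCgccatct
Rps27l (chr9:66946071-66946100, + strand): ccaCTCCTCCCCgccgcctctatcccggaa
The runs spanned 18 bases in Rpl35 and 13 in Rpl35a, and 5 in Rps16. Rps27l, the member that was lower in Irf1-/- cells, held a run of 9 bases. The runs of Rpl37, Rps16 and Rps27l ended before the RefSeq start and so lay outside the mRNA by that annotation. The others shown reached across the start. In the GENCODE annotation the gene Rps16 started earlier, at chr7:28350652, so that its run lay inside the gene.

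Over all members, 52 of 70 had an entry in the RefSeq promoter table, 63 entries in all. A run of at least 7 pyrimidines lay within the 30 bases in 47.6% of the member entries and in 18.6% of the 32851 entries of the table. Such a run stood in at least 1 entry of 15 of the 24 matched members called higher in Irf1-/- cells and of 13 of the 27 matched members that were not called. In the whole entry of 300 bases (250 before the start and 50 after it, both strands searched) the ETS motif CCGGAAG stood in 34.9% of member entries and 8.86% of all entries, and the YY1 motif AANATGGC in 20.6% and 6.05%. The E-box CACGTG was present in 12.7% and 7.15%. The TATA box TATAAA was present in 9.52% of member entries and 13.6% of all entries. The motif AANNGAAA, the core of the ISRE element that IRF family proteins bind, was found in 28.6% of member entries and 23.9% of all entries. Matches of letters are descriptions of these windows and were not tested as binding sites.

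The libraries held between 5639788 and 13348230 reads on genes, with replicate 3 of each genotype the largest, so that 3 reads corresponded to a normalized count of 1.84 to 4.16. Reads on Irf1 were not lost in the Irf1-/- libraries, at 1780, 1729 and 1476 normalized counts against 2968, 2907 and 2660 in WT. WT replicates 1 and 2 carried transcripts of the Y-linked gene Ddx3y (849 and 939 normalized counts), whereas WT replicate 3 and the Irf1-/- libraries carried Xist at 16974 to 19404, so the genotypes differed in the sex of the cells as well, and the WT cultures did not all come from the same mouse. T cell markers summed to 13021 to 13261 normalized counts in WT and 12545 to 12982 in Irf1-/- libraries. The 7 myeloid markers summed to 21.2 to 149 in WT and 16.0 to 993 in Irf1-/- libraries, highest in Irf1-/- replicate 2. The 2 CD8 markers stayed between 20.3 and 41.2, the 6 B cell markers between 18.7 and 38.2 with Pax5 at 0, and the 5 NK markers at 9.71 or less with Ncr1, Klrb1c and Klra8 at 0.

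Many ribosomal protein mRNAs were slightly more abundant in Irf1-/- than in WT Th9 cells. Of the 70 members, 34 were called higher in Irf1-/- cells, 1 was called lower and 35 were not called (limma with Benjamini-Hochberg adjustment over all genes tested, adjusted p below 0.05). Over all 11379 genes tested, 11.4% were called higher and 12.4% lower. The median log2 fold change of the members was 0.21, a fold of 1.16, beside -0.0037 over all genes tested, and 64 of 70 members were above 0. The groups did not overlap, all 3 Irf1-/- libraries being above all 3 WT libraries, for 51 members, against 19.7% of all genes, and 1 member lay lower without overlap, against 20.9% of all genes. All 34 members called higher were among the 51.

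**Figure D1:**
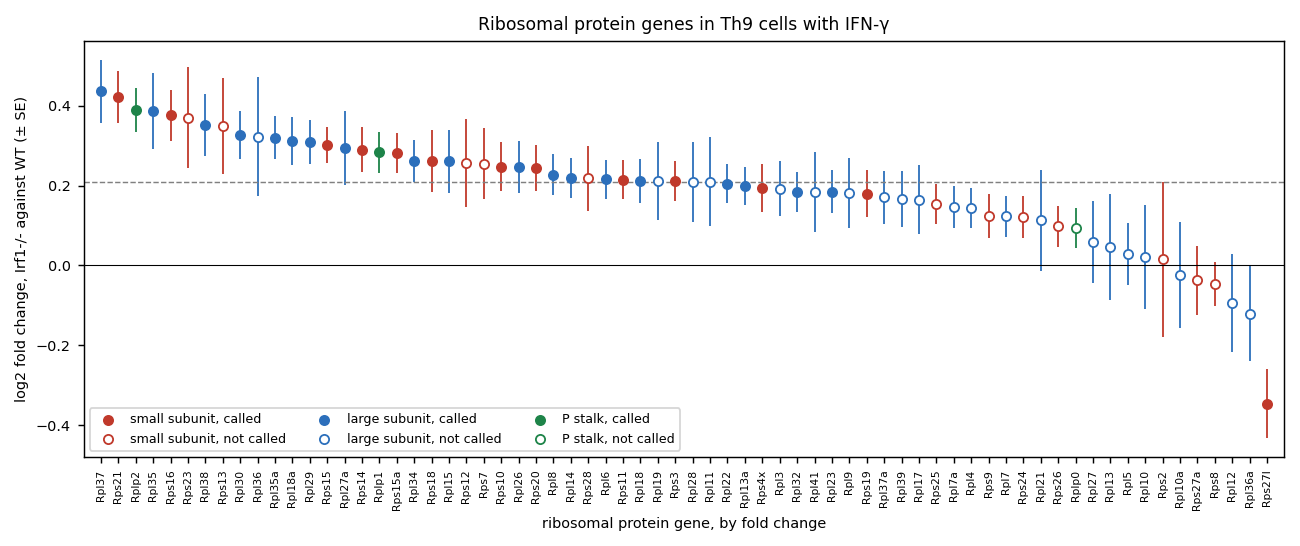
Log2 fold change of 68 of the 70 ribosomal protein genes, Irf1-/- against WT, ordered by size. Points are limma estimates from 3 libraries a genotype, bars are standard errors, filled points passed the adjusted p of 0.05, colours mark the subunit, the dashed line is the median of 0.21 over all 70, and 62 of the 68 points lie above 0.

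Genes of both subunits and of the stalk were among those called. In the small subunit 13 of 27 genes were called higher and 1 lower with a median of 0.22, and in the large subunit 19 of 40 were called higher with a median of 0.20. Of the P stalk genes, Rplp1 and Rplp2 were called higher, whereas Rplp0, the scaffold of the stalk, had a log2 fold change of 0.09 (95% interval -0.02 to 0.21). The difference between the subunits was not tested. The members lay on 19 chromosomes, with at most 14 on a single one, chromosome 7.

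Together the 70 genes took 2.69%, 2.68% and 2.54% of the reads on genes in the WT libraries and 3.03%, 3.23% and 2.95% in the Irf1-/- libraries. The lowest Irf1-/- library thus stood above the highest WT library. The means were 2.64% ± 0.0852 (SD, n = 3) and 3.07% ± 0.145 (SD, n = 3), a ratio of 1.16. Without the 10 most abundant other genes in the denominator the shares were 2.77% and 3.23%. Small subunit genes went from 1.06% in WT to 1.24% in Irf1-/- cells, large subunit genes from 1.23% to 1.44%, and stalk genes from 0.338% to 0.389%.

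**Figure D2:**
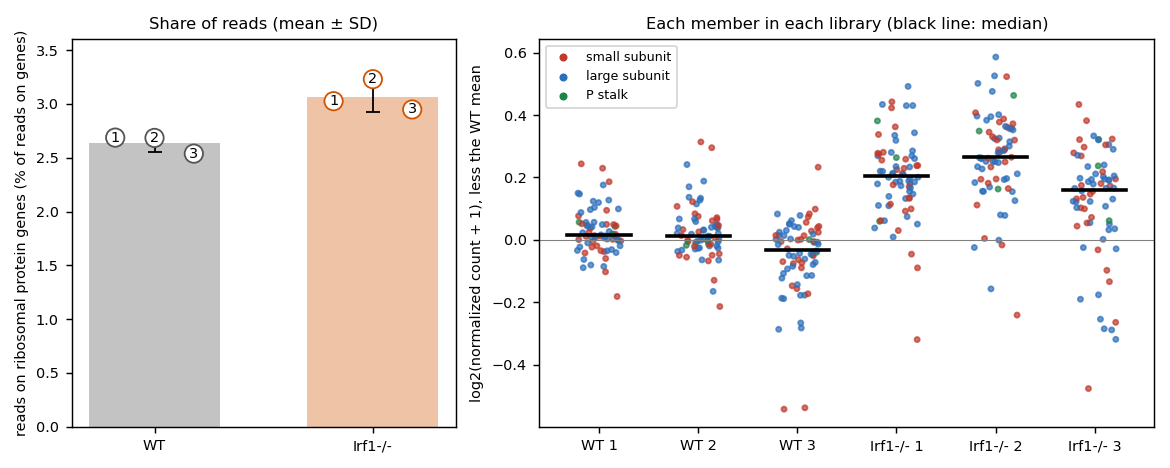
Left, percent of reads on genes that fell on the 70 ribosomal protein genes, with bars for the mean, error bars for the SD of 3 libraries and numbered points for the replicates. Right, log2(normalized count + 1) of each member in each library less its WT mean, with a black line at the median, which lay between -0.03 and 0.01 in the WT and between 0.16 and 0.26 in the Irf1-/- libraries.

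Most members of an Irf1-/- library lay above their WT mean. For replicates 1, 2 and 3 the median deviation from the WT mean on the log2 scale was 0.01, 0.01 and -0.03 in WT, whereas the Irf1-/- libraries gave 0.20, 0.26 and 0.16. The median SD of a member within groups was 0.077 on the log2 scale. In the 4 smaller libraries, replicates 1 and 2, the median log2 fold change was 0.22, and in the pair of larger libraries, replicate 3, it was 0.17.

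The counts of calls depended on single libraries and on the variance model. Without WT replicate 1, WT replicate 2 or Irf1-/- replicate 2 there were 20, 22 and 19 members called higher, where 808, 799 and 820 of the 11379 genes were. Limma without a mean-variance trend called 14 members and 928 of all genes higher, against 34 members and 1293 of all genes with it, while the median log2 fold change stayed between 0.18 and 0.23 over the 6 fits that left out a library.

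Ribosomal protein mRNAs are short, and the fold change went with transcript length over all genes (Spearman's rho -0.18). Over all genes it also went with GC content (rho 0.28) and with level (rho -0.21). The members' transcripts had a median length of 740 bases, against 2717 bases over all genes tested. Among other genes the median log2 fold change was 0.10 for transcripts up to 600 bases, 0.04 between 1000 and 2000 bases and -0.08 over 4000 bases. Members stood above other genes of their length in each class that held members. They were at 0.26 up to 600 bases (25 members) and 0.18 from 600 to 1000 bases (29 members). From 1000 to 2000 bases they were at 0.20 (14 members). The class from 2000 to 4000 bases held only 2 members, at 0.14, against -0.0078 in other genes of that class. Other genes of 600 to 1000 bases were at 0.10 and were called higher in 15.4% of cases.

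**Figure D3:**
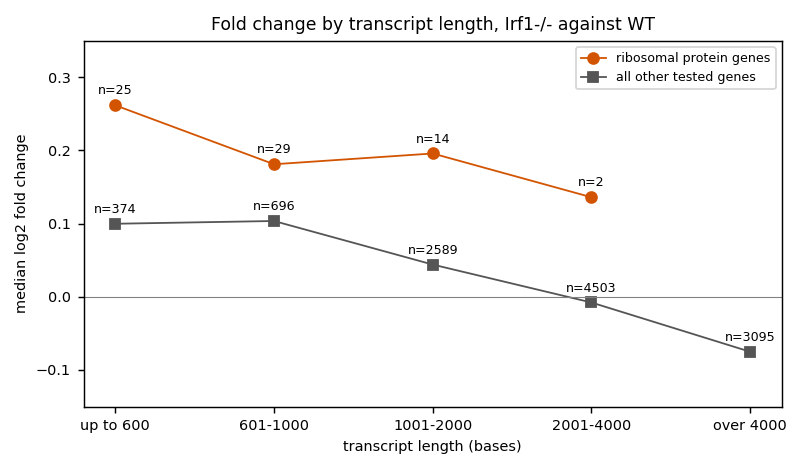
Median log2 fold change, Irf1-/- against WT, by transcript length for the 70 ribosomal protein genes (orange) and all other tested genes (grey), with the number of genes beside each point. Both lines are highest among short transcripts, and the members lie above the other genes in each of the 4 length classes in which there were members. The class from 2000 to 4000 bases held only 2 members.

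In each library the trend of the log2 deviations with transcript length and GC content was fitted over all other genes and subtracted, a correction chosen after seeing the data. After it the members' median fell from 0.21 to 0.12, beside -0.03 over all 11327 genes with a known length. Then 13 members were called higher, where 8.73% of all genes were, and 2 were called lower, where 13.6% of all genes were. All 13 had been called before the correction, and 55 of 70 members stayed above 0. Rpl37 (0.39, adjusted p = 0.0039), Rps21 (0.31, adjusted p = 0.00273), Rps16 (0.31, adjusted p = 0.00708) and Rplp2 (0.23, adjusted p = 0.00519) were among the 13. Rpl35 and Rpl38 were not, at 0.21 (adjusted p = 0.0831) and 0.19 (adjusted p = 0.106). Rps20 was also among the 13, at 0.24 before and 0.38 after the correction. Its annotated transcript of 3706 bases was the longest of the members. Whether length or GC content moved the libraries was not tested. The part of the sex of the cells, and of the myeloid markers that were highest in Irf1-/- replicate 2, was not tested. With the level of Ddx3y as a covariate the members' median was 0.26. Ddx3y was at 849 and 939 normalized counts in WT replicates 1 and 2, 0 in WT replicate 3 and 0 to 4.16 in Irf1-/- libraries. The genotype difference of that fit thus rested in effect on WT replicate 3 alone against the Irf1-/- libraries, so its calls are not given.

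The member with the largest log2 fold change was Rpl37 (ENSMUSG00000041841, chr15:5116645-5119140), a small zinc-binding protein of the large subunit. Its normalized counts were 577, 584 and 554 in WT and 772, 858 and 699 in Irf1-/- cultures. The Irf1-/- cultures were all above the WT cultures, and Irf1-/- replicate 2 was the highest of them. On the log2 scale the difference was 0.44 with a standard error of 0.079 (adjusted p = 0.00319).

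Rps21, a protein of the small subunit, was close behind it. It stood at 2253, 2318 and 2081 normalized counts in WT and 2969, 3183 and 2767 in Irf1-/- cultures, again without overlap. The log2 difference came to 0.42 with a standard error of 0.065 (adjusted p = 0.00129). Rps16, whose tail reaches toward the tRNA in the small subunit, had 686, 723 and 650 normalized counts in WT and 867, 879 and 927 in Irf1-/- cultures. It differed from Rps21 and Rpl37 in that Irf1-/- replicate 3, not replicate 2, was the highest library. Its log2 fold change was 0.38 (adjusted p = 0.00228).

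Rplp2 (ENSMUSG00000025508, chr7:141447370-141451585), which pairs with Rplp1 in the stalk, had the smallest adjusted p of the 8 members with the largest differences among those called higher. It had 2991, 2859 and 2783 normalized counts in WT and 3747, 3965 and 3596 in Irf1-/- cultures. Its replicates were close together and the groups were far apart in relation to them, at 0.39 on the log2 scale with a standard error of 0.055 (adjusted p = 0.000789). Rplp1 itself had 6436, 6235 and 6077 normalized counts in WT and 7499, 7955 and 7363 in Irf1-/- cultures, a log2 fold change of 0.28 (adjusted p = 0.00312). After the correction for length and GC content Rplp1 was at 0.11 (limma, adjusted p = 0.11) and was not called. The scaffold Rplp0 did not pass the test, at 18272, 17833 and 18061 against 18808, 20210 and 18837, although these groups did not overlap either.

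The other members among the 8 largest differences that passed the test belonged to the large subunit. Rpl35, which lies at the exit of the nascent chain, had 675, 597 and 559 normalized counts in WT and 820, 876 and 700 in Irf1-/- cultures (log2 fold change 0.39, adjusted p = 0.0147). Its lowest Irf1-/- library was only slightly above its highest WT library, and 5 of 21 alternatives with a test lost the call. Rpl38, known for its part in the translation of Hox mRNAs in the embryo, had 421, 447 and 473 normalized counts in WT and 602, 582 and 527 in Irf1-/- cultures (0.35, adjusted p = 0.00872), and lost its call under 2 alternatives. Rpl30 had 1166, 1183 and 1111 against 1463, 1523 and 1357 (0.33, adjusted p = 0.0037). Rpl35a had 1524, 1484 and 1505 against 1802, 1978 and 1858 (0.32, adjusted p = 0.00227). Both sets of groups were well separated. Rpl35a is one of the ribosomal proteins mutated in Diamond-Blackfan anaemia. The 34 members called higher ranged from 0.18 to 0.44 on the log2 scale, so none reached a doubling.

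The 1 member called lower was Rps27l (ENSMUSG00000036781, chr9:66946086-66949516), a paralog of Rps27 that is known as a target of p53. It had 1189, 1249 and 1018 normalized counts in WT and 919, 971 and 824 in Irf1-/- cultures. Each Irf1-/- culture lay below each WT culture, with replicate 3 the lowest of both genotypes. The log2 difference was -0.35 with a standard error of 0.087 (adjusted p = 0.0157). The call was lost under 5 of 21 alternatives, with fold changes from -0.43 to -0.18. Rps27 itself had a mean of 20.1, below the limit of 100, and 1.35% of its 50-base windows occurred in no other gene, against 77.6% for Rps27l, so that their levels cannot be compared.

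The share of members called differed with their level. Between a mean of 100 and 500 normalized counts 1 of 15 members was called higher, against 12.6% of other genes at that level, with a median standard error of 0.11 and a median log2 fold change of 0.21. Above 5000 normalized counts 9 of 13 were called higher, against 20.7% of other genes, with a median standard error of 0.051 and the same median of 0.21. The size of the difference did not follow the level over the 70 members (Spearman's rho 0.0087, a description across genes that share libraries). In 17 members the groups did not overlap in the higher direction and yet the test was not passed, among them Rps13 (0.35, adjusted p = 0.0584) and Rps23 (0.37, adjusted p = 0.0562). The mean of Rps23 was 96.8 in WT and 125 in Irf1-/- cultures, so that it reached the limit of 100 through the Irf1-/- cultures.

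Rps23, a protein of the decoding centre, and Rps13 were also among the members nearest to the limit of 100 from above, with means of 111 and 151 normalized counts. Just outside were Rpl31 with 97.0, Rps6 with 89.7 and Rps29 with 76.8. Rps6, the substrate of the S6 kinases, had 15.4% of its windows free of copies elsewhere. Of the 11 genes left out by level 7 were tested, none was called, and their median log2 fold change was 0.16. Rpl10l, Rpl3l and Rpl6l were at or near 0, with means of 0, 0.21 and 0.54.

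Rps2 and Rpl10a were among the members whose replicates spread most. Rps2, near the mRNA entry of the small subunit, had 7686, 7967 and 4469 normalized counts in WT and 6776, 7719 and 5404 in Irf1-/- cultures. Replicate 3 was low in both genotypes, and the genotypes overlapped (log2 fold change 0.02, standard error 0.19). Rpl10a, of the large subunit, was also lowest in replicate 3 of both genotypes, at 1624, 1708 and 1262 in WT and 1704, 1605 and 1217 in Irf1-/- cultures (-0.02, 95% interval -0.32 to 0.27). For all 70 members the difference of replicate 3 from replicates 1 and 2 in WT went with that in Irf1-/- cells (Spearman's rho 0.68 and Pearson's r 0.61 across genes, against a rho of 0.38 over all genes tested), and 9 members were lower by over 0.2 on the log2 scale in replicate 3 of both.

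Of the X-linked members Rps4x was called higher and the others were not. Rps4x, a small subunit protein, had 3813, 3652 and 4029 normalized counts in WT and 4100, 4599 and 4453 in Irf1-/- cultures (log2 fold change 0.19, adjusted p = 0.038), a call lost under 8 of 21 alternatives. Rpl39, a short protein that lines the exit tunnel, was at 0.17 (95% interval 0.01 to 0.32, adjusted p = 0.113). Rpl10, which joins the large subunit late in its assembly, was at 0.02 (95% interval -0.27 to 0.31), and Rpl36a at -0.12 (95% interval -0.38 to 0.14). In WT replicates 1 and 2, the libraries with Ddx3y, Rps4x had 3813 and 3652 normalized counts and in WT replicate 3, with Xist, 4029. The other X-linked members went the other way. In the same order Rpl39 had 766, 799 and 726, Rpl10 653, 689 and 551, and Rpl36a 182, 170 and 151.

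The level of the members, per kilobase of transcript, spanned a range of 174-fold, although a ribosome holds its proteins in near equal numbers. The highest were Rpl8, a protein of the peptidyl transferase centre, with a mean of 20625 normalized counts per kilobase, and Rpl4, which lines the exit tunnel, with 16737. The lowest were Rps23 with 118, Rpl5, which joins the large subunit bound to its small ribosomal RNA, with 154, and Rpl21 with 193. Rpl4, Rplp0 and Rpl8 held 27.3% of all normalized counts of the 70 members. Among the highest, Rpl8 stood at 15947, 16178 and 16368 normalized counts in WT and 18527, 19904 and 18387 in Irf1-/- cultures (log2 fold change 0.23, adjusted p = 0.00953). After the correction for length and GC content Rpl8 was at 0.04 (adjusted p = 0.62). Rpl4, at 24289, 23960 and 25143 against 26377, 27247 and 27437, did not overlap between the genotypes but missed the threshold (0.14, adjusted p = 0.058).

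Many ribosomal protein genes have processed pseudogenes, and their reads can match several places in the genome. How the counting treated such reads was not stated. The median member shared part of its mRNA with other annotated transcripts, so that 46.5% of its 50-base windows occurred in no other gene, against 100% for the mitochondrial ribosomal protein genes. In 40 members below 50% of the windows were unique, and in 69 below 100%. The level per kilobase was higher where more windows were unique (Spearman's rho 0.39 over the 70 members, a description). The median level was 798 normalized counts per kilobase below 25% (19 members), 2540 from 25% to 50% (21 members), 1896 from 50% to 75% (21 members) and 7787 above 75% (9 members), so it did not rise at every step. These levels thus cannot be read as a ranking of mRNA abundance, and a transcript chosen too long, such as the 3706 bases annotated for Rps20, lowers the value per kilobase further.

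**Figure D4:**
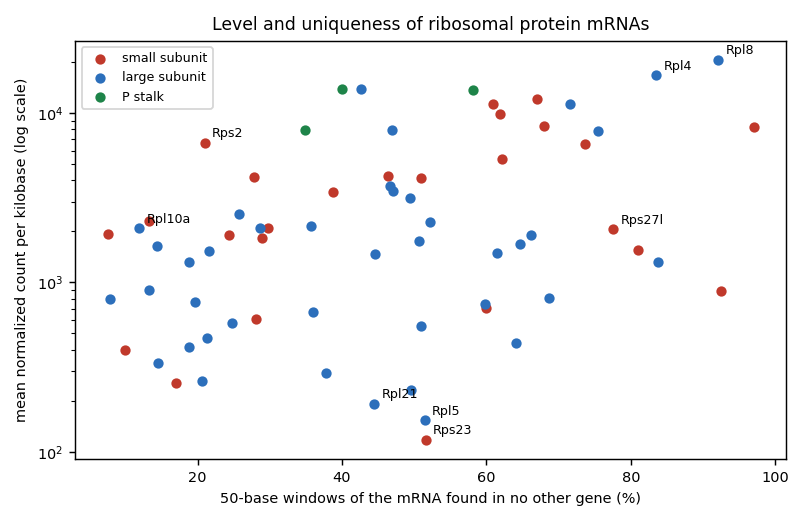
Mean normalized count per kilobase (log scale) of 68 of the 70 ribosomal protein genes against the percent of 50-base windows of their mRNA found in no other annotated gene. Each point is a gene, coloured by subunit, and over all 70 members those below 25% have a lower median level (798) than those above 75% (7787).

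The fold change differed less between these classes than the level did. The median log2 fold change was 0.19 in the 19 members with under 25% unique windows (4 called higher), 0.21 in the 21 members between 25% and 50% (11 called higher), 0.28 in the 21 members between 50% and 75% (14 called higher) and 0.21 in the 9 members above 75% (5 called higher and 1 lower). Over all genes tested 11.4% were called higher and 12.4% lower. The median standard error also differed between the classes, at 0.097, 0.058, 0.059 and 0.053 in the same order. The rho between fold change and unique share was 0.15. Of 250 genes with the symbol of a ribosomal protein pseudogene 12 had a mean of at least 10. Their summed level over all 250 was 691 to 733 normalized counts in WT and 738 to 764 in Irf1-/- libraries.

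Some genes of the cytosolic ribosome are missed by the symbol rule. Of 10 such genes 7 were tested, 1 was called higher and 1 lower, 14.3% in each direction, where 11.4% and 12.4% of all genes were, with a median log2 fold change of 0.16. Rpl22l1, a paralog of Rpl22, the large subunit protein that mouse T cells need for their development, was called higher by more than any member. It had 529, 478 and 564 normalized counts in WT and 891, 982 and 960 in Irf1-/- cultures, without overlap, and differed by 0.85 on the log2 scale with a standard error of 0.075 (adjusted p = 4.24e-05). Rpl22 itself was at 0.21 (adjusted p = 0.0135). Rpl7l1, the paralog of Rpl7, was called lower (-0.25, adjusted p = 0.0243), a call lost under 7 of 21 alternatives, whereas Rpl7 was at 0.12 (adjusted p = 0.103).

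Of 38 ribosome biogenesis factors, which build ribosomes, none was called higher and 14 were called lower, where 12.4% of all genes were, with a median log2 fold change of -0.15. In WT libraries they took 1.52% ± 0.0045 (SD, n = 3) of the reads on genes, and in Irf1-/- libraries 1.35% ± 0.056 (SD, n = 3). Utp20, a scaffold of the early small subunit precursor, was at -0.63 (adjusted p = 0.000151), Tsr2, an escort of Rps26, at -0.49 (adjusted p = 0.00268), and Heatr1, a further factor of the precursor, at -0.33 (adjusted p = 0.00167). These 3 kept their calls under the 21 alternatives with a test. After the correction for length and GC content 17 of the 38 were called lower, where 13.6% of all genes were. The count was 7 without WT replicate 1, 8 without WT replicate 2, 9 without Irf1-/- replicate 2, 6 without the trend and 7 with quantile normalization. In these fits 829, 826, 895, 807 and 1216 of all 11379 genes were called lower, against 1406 as first given.

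RNA polymerase I makes the precursor of most ribosomal RNA. Of 12 of its subunits and factors 3 were called lower, where 12.4% of all genes were, and none higher, with a median log2 fold change of -0.10. These were the catalytic subunits Polr1a (-0.33, adjusted p = 0.00282) and Polr1b (-0.23, adjusted p = 0.0178), and the initiation factor Rrn3 (-0.23, adjusted p = 0.0117). Of 21 alternatives with a test Polr1b lost its call under 5, Rrn3 under 3 and Polr1a under none, and 1 gene was called lower without WT replicate 2, without the trend or with quantile normalization, where 826, 807 and 1216 of all genes were.

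The mitochondrial ribosomal proteins, which serve a separate ribosome, had a median log2 fold change of 0.0050 over the 76 genes tested of 77. Among them 4 were called higher, where 11.4% of all genes were, including Mrpl4 (0.31), Mrpl24 (0.26) and Mrpl57 (0.24), and 5 lower, where 12.4% of all genes were, including Mrpl1 (-0.29), Mrpl42 (-0.26) and Mrps31 (-0.25). Without WT replicate 1 there were 1 higher and 0 lower, where 808 and 829 of all genes were, and without WT replicate 2 there was 1 in each direction, where 799 and 826 were. Without Irf1-/- replicate 1, without the trend and with DESeq2 there were 2 higher and 0 lower, where 917 to 942 of all genes were called higher and 807 to 1060 lower. Without Irf1-/- replicate 2 there were 2 higher and 3 lower, where 820 and 895 of all genes were, and without Irf1-/- replicate 3 there were 4 higher and 1 lower, where 1223 and 1472 were. Of 21 alternatives with a test Mrps31 lost its call under 12, Mrpl57 under 11, Mrpl42 under 10, Mrpl1 under 7, Mrpl24 under 3 and Mrpl4 under 1. Their share of reads was 0.432% in WT and 0.440% in Irf1-/- cells.

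**Figure D5:**
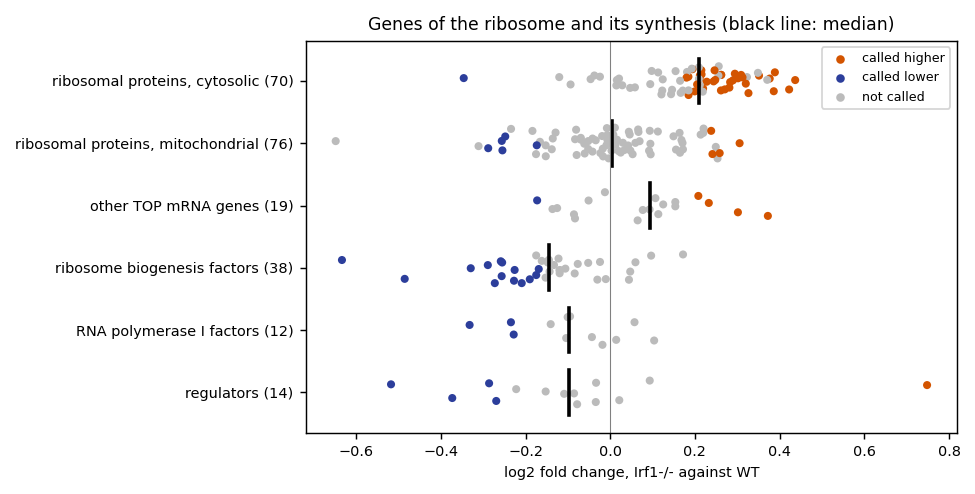
Log2 fold change, Irf1-/- against WT, of the cytosolic ribosomal protein genes and of 5 related lists, with the number of genes tested in brackets. Each point is a gene, orange and blue points were called higher and lower, and black lines are medians, which lie at 0.21 for the cytosolic ribosomal proteins and at -0.15 for the biogenesis factors.

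Of 19 other genes with TOP mRNAs 4 were called higher, where 11.4% of all genes were, and 1 lower, with a median log2 fold change of 0.09 that was 0.02 after the correction for length and GC content. Eef1a1, the elongation factor that delivers tRNA, was called higher (0.37, adjusted p = 0.00556), as were Eif3k (0.30, adjusted p = 0.00872) and Rack1, a scaffold protein bound to the small subunit (0.23, adjusted p = 0.00778). Nap1l1, a histone chaperone, was called lower (-0.17, adjusted p = 0.0338), a call lost under 9 of 21 alternatives. Eif3k lost its call under 3 of them, Rack1 under 2 and Eef1a1 under none. The count called higher was 2 without WT replicate 1, 6 without WT replicate 3, 6 with quantile normalization and 1 without the trend, where 808, 1372, 1256 and 928 of all 11379 genes were called higher. The list took 2.23% of reads in WT and 2.48% in Irf1-/- cells.

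Of 14 regulators of ribosomal protein synthesis tested of 15 in the list, 1 was called higher and 4 lower, where 12.4% of all genes were. Without WT replicate 1, without WT replicate 2 or without the trend 2 were called lower, where 829, 826 and 807 of all 11379 genes were. Eif4ebp1, an mTORC1 substrate that holds back cap-dependent translation, rose by 0.75 on the log2 scale (adjusted p = 8.68e-05). Max, the partner of MYC, was at -0.52 (adjusted p = 0.000108), Yy1, whose motif was counted above, at -0.37 (adjusted p = 0.0109), and Tsc1, an inhibitor of mTORC1, at -0.29 (adjusted p = 0.015). The fourth was Larp1, the TOP-binding protein, at -0.27 (adjusted p = 0.0079), which is named here after its value was seen. Yy1 lost its call under 4 and Tsc1 under 6 of 21 alternatives, while Eif4ebp1 and Max kept theirs.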

How the data were processed

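RNA-Seq of 3 WT and 3 Irf1-/- Th9 cultures with IFN-γ was used. The authors aligned single-end reads to GRCm38 with STAR 2.4.0b, counted them on Ensembl genes (release 76) with featureCounts and used DESeq2 1.12.3. The read length was given as 59 bases in the sample labels and 50 in the methods. The values deposited by the authors are normalized counts (unit signal), that is reads per gene after division by the library's size factor, from which whole reads were recovered for 100% of values (tolerance 0.01). Strand setting and the treatment of reads with several matches are not given in the sources used here. Columns not mapped to a sample numbered 0.

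The genotypes were compared by limma 3.58.1 in R 4.3.3 (eBayes with a mean-variance trend, two-sided) on log2(normalized count + 1), a scale that understates changes of low genes. Genes entered at a mean of 10 or more, and p-values were adjusted by Benjamini-Hochberg over all of them, with a threshold of 0.05. The unit called for limma, whereas the study used DESeq2 on counts. On the recovered reads edgeR 4.0.16 and DESeq2 1.42.0 served as alternatives. They called 34 and 33 members higher, where 1261 and 942 of all 11379 genes were. Other alternatives were pseudocounts, filters, scalings, no trend, Ddx3y as covariate, a replicate block, subsets of libraries and, added after seeing the data, a correction for transcript length and GC content. The scripts were tested on simulated data. Transcript lengths, GC content and unique 50-base windows came from GENCODE transcripts of GRCm38 and one transcript per gene, promoters from RefSeq, and 40254 of 41388 identifiers had a symbol.

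Members, gene lists and tests were chosen with earlier results of these data known. Members are named if called without overlap (up to 8 in each direction), if highest or lowest per kilobase or most variable (3 each), if a paralog ending in l, X-linked or nearest to the mean of 100, and from each list up to 3 called genes in each direction. Further members given as values beside a named relative, or to illustrate a count, were added after their values were seen. Values of 2 single members are not reported here, though both are in the counts and medians. ChIP-Seq was not analysed here.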

Additional observations from a re-analysis of the deposited data

How the results depend on the processing

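The median log2 fold change of the ribosomal protein genes stayed above 0 in every alternative, from 0.12 with the length and GC correction, which was chosen after seeing the data, to 0.26 with Ddx3y as a covariate (0.121 and 0.257). The fit with Ddx3y rested in effect on WT replicate 3 alone against the Irf1-/- libraries. Members called higher, 34 as reported, numbered 14 without a mean-variance trend (928 of all genes) and 13 with the length and GC correction (989 of 11327 genes), and between 19 and 39 when single libraries were left out (799 to 1372 of all genes). Of the 34, 14 were still called without the trend, 13 with the length and GC correction, and 19, 22 and 19 without WT replicate 1, WT replicate 2 and Irf1-/- replicate 2. The 1 member called lower, Rps27l, was lost (0 called) with quantile normalization and without the trend, where 1216 and 807 of all genes were called lower. Without single libraries the count ranged from 0 to 1. With the length and GC correction 2 were called lower, where 1545 of 11327 genes were. With replicates 1 and 2 only, 50 were called higher and 2 lower, where 1810 and 2085 of all 11379 genes were. A fit with the replicate number as a block called 50 higher and 1 lower, where it called 1893 and 2116 of all 11379 genes, against 1293 and 1406 without the block. The numbers were not taken as pairs, since the correlation of deviations of same-numbered libraries was 0.0922, 0.269 and 0.321, although over all genes tested every library correlated best with its own number, which did not hold over the members alone. Between 100 and 500 normalized counts, where the median standard error was 0.11, 1 of 15 members was called higher. Where the pair of larger libraries was used alone no test was possible.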
